A study of Mus musculus with 6 samples.

Results

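The genes described here encode the machinery that licenses DNA for replication and starts its copying: the helicase subunits Mcm2, Mcm3, Mcm4, Mcm5, Mcm6 and Mcm7, the loading factors Cdt1 and Cdc6, the sliding clamp Pcna and the ribonucleotide reductase subunit Rrm2. They were chosen by name, with earlier results of these data known. They are 10 of 18193 genes that the array annotation names, and were read by every probe set annotated to each gene alone. That gave 27 probe sets. RNA abundance was measured in mouse cells on 1 oligonucleotide array per sample. The groups were FL-Y, an SV40 transformed FDC-like cell line, activated with an antibody against the LTbeta receptor (1 array); FL-Y without that activation (1 array); follicular dendritic cells grown in vitro (FDC, 2 arrays); and bone marrow derived dendritic cells (BMDC, 2 arrays). FDC are stromal cells that present antigen in B cell follicles, and BMDC are hematopoietic antigen-presenting cells. The FL-Y arrays come from 1 line and have no replicate. Strain, age, culture time and antibody dose are not given in the labels used here, nor do they say whether the arrays of a pair stem from separate cultures or animals. The p-values therefore reflect the spread of these arrays alone, and that spread may be technical.

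A replication origin is licensed in G1 phase, when the origin recognition complex, Cdc6 and Cdt1 load the ring of Mcm2 to Mcm7 onto DNA. In S phase the loaded helicase is activated and unwinds the origin, Pcna holds the polymerases on the template, and ribonucleotide reductase makes the deoxynucleotides. The RNAs of these genes are known to be made mostly in cycling cells, under E2F transcription factors that the retinoblastoma protein family holds in check, and SV40 large T antigen is known to bind that family. None of these proteins was measured here.

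Promoter sequence is shown first, as a description of the genes. RefSeq promoters (GRCm38.p6, 250 bases before to 50 after each transcript start) were found for 9 of the 10 genes, with 10 promoters in all, 2 of them for Mcm7. The E2F words searched were TTTCCCGC, TTTCGCGC, TTTGCCGC and TTTGGCGC on both strands, with overlapping matches joined. At least 1 word was found in 6 of 10 promoters, those of Cdc6, Cdt1, Mcm3, Mcm5, Mcm6 and 1 of the 2 of Mcm7, against 2.26% of 32851 promoters of the same length. A CCAAT word, on either strand, was in 8 of 10, against 37.4% of all, and the word TTTGAA was in 1 of 10 (Mcm2), against 17.9%. The promoters of Mcm2, Pcna and Rrm2 held no E2F word. The matches describe letters and are not measured sites, and no link between words and RNA values was tested. The lines that follow give the 250 bases before the start for Mcm6 and for Rrm2, whose representative probe sets differed most and least between FDC and BMDC. They add shorter stretches around words of Mcm5, Mcm7, Cdc6, Mcm3 and Cdt1. Capitals mark the E2F words, and each line runs 5′ to 3′ on the gene's strand.
Mcm6, chr1:128359706-128359955, minus strand: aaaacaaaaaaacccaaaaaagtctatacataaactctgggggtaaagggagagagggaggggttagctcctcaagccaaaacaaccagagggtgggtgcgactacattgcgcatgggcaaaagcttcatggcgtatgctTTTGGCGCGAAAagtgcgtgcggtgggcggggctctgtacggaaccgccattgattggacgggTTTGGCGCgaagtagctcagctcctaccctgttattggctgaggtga
Rrm2, chr12:24708004-24708253, plus strand: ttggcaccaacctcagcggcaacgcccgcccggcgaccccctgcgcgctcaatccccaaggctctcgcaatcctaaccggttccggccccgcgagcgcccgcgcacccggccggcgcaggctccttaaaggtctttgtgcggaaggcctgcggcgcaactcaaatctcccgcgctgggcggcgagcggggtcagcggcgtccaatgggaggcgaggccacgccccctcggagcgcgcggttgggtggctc
Mcm5, chr8:75109326-75109397, plus strand: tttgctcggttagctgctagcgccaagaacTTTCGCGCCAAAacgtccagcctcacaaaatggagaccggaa
Mcm7, chr5:138172011-138172078, minus strand: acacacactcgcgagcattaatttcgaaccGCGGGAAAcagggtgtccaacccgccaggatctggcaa
Cdc6, chr11:98907983-98908050, plus strand: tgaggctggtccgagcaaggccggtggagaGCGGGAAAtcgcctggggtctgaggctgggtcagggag
Mcm3, chr1:20820266-20820294, minus strand: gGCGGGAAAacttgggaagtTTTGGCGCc
Cdt1, chr8:122568036-122568064, plus strand: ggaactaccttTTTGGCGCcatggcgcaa

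In Mcm6 the words lay at -110 to -99 and at -47 to -40 from the transcript start, whose first base is 1. The Mcm5 match, at -153 to -142, is a pair of overlapping words on opposite strands, as is the first match of Mcm6. The words of Mcm3 (20 to 27 and 39 to 46) and Cdt1 (33 to 40) lay just after the start, as did a second word of Mcm7 (17 to 24), whose first lay at -165 to -158. The Rrm2 stretch holds none of the 4 words and a CCAAT at -50 to -46.

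The arrays had been scaled to like trimmed means, 498 to 500 signal units. Median signals lay at 47.9 for activated FL-Y, 61.1 for FL-Y, 82.5 and 79.6 for FDC, and 76.4 and 84.4 for BMDC. All differences below are on the log2(signal + 14.2) scale, which understates the change of dim genes. The labelled cell types were compared with marker lists. Of 7 hematopoietic markers, 7 were lower in FDC than in BMDC at an adjusted p under 0.05 (limma), and of 7 mesenchymal markers, 7 were higher. The hematopoietic markers summed to 241 in activated FL-Y, 332 in FL-Y, 1736 and 1713 in FDC, and 216879 and 167393 in BMDC. Of 7 FDC markers none was called higher in FDC and 3 were called lower (Fcgr2b, Clu and Mfge8). Cxcl13, the chemokine that draws B cells to follicles, had signals of 1288 and 64.5 in FDC against 50.9 and 36.4 in BMDC, a difference of 2.48 (limma adjusted p = 0.331). Cr2, a complement receptor on the FDC marker list, had signals of 119.5 and 4.1 in FDC against 59.1 and 71.1 in BMDC. The 4.1 was under that array's 20th percentile. The T cell markers summed to 1873 and 1046 in FDC against 247 and 71.1 in BMDC, with 2 of 5 called higher and none called lower. Mast cell markers summed to 5135 and 6187 in FDC against 2941 and 645 in BMDC, with 3 of 5 called higher and none called lower. The part of such cells in the results was not tested, and in bulk RNA fewer cells of a cycling kind and less RNA per cell cannot be told apart.

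The series text names the comparison of FDC with BMDC. Read by their representative probe sets, all 6 helicase genes were lower in both FDC arrays than in both BMDC arrays, by 2.43-fold to 7.62-fold. The loading factor Cdt1 was lower by 6.72-fold, Cdc6 by 5.18-fold with 1 FDC value at background level, Pcna by 3.02-fold and Rrm2 by 1.27-fold. Of the 10 genes, 4 (Mcm3, Mcm5, Mcm6 and Cdt1) passed an adjusted p of 0.05 with limma over all 27022 probe sets tested, and none was higher. Over all probe sets tested, 4.09% were called lower in FDC. At an unadjusted p under 0.05, 9 of the 10 genes were lower, all except Rrm2, against 11.5% of all probe sets. By the representative probe sets, both FDC arrays lay below both BMDC arrays for 10 of 10 genes, against 28.9% of all probe sets. Of all 27 probe sets of these genes, 22 lay lower in both FDC arrays than in both BMDC arrays. The median difference of the 10 genes was -2.25, against -0.053 for all probe sets tested.

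**Figure D1:**
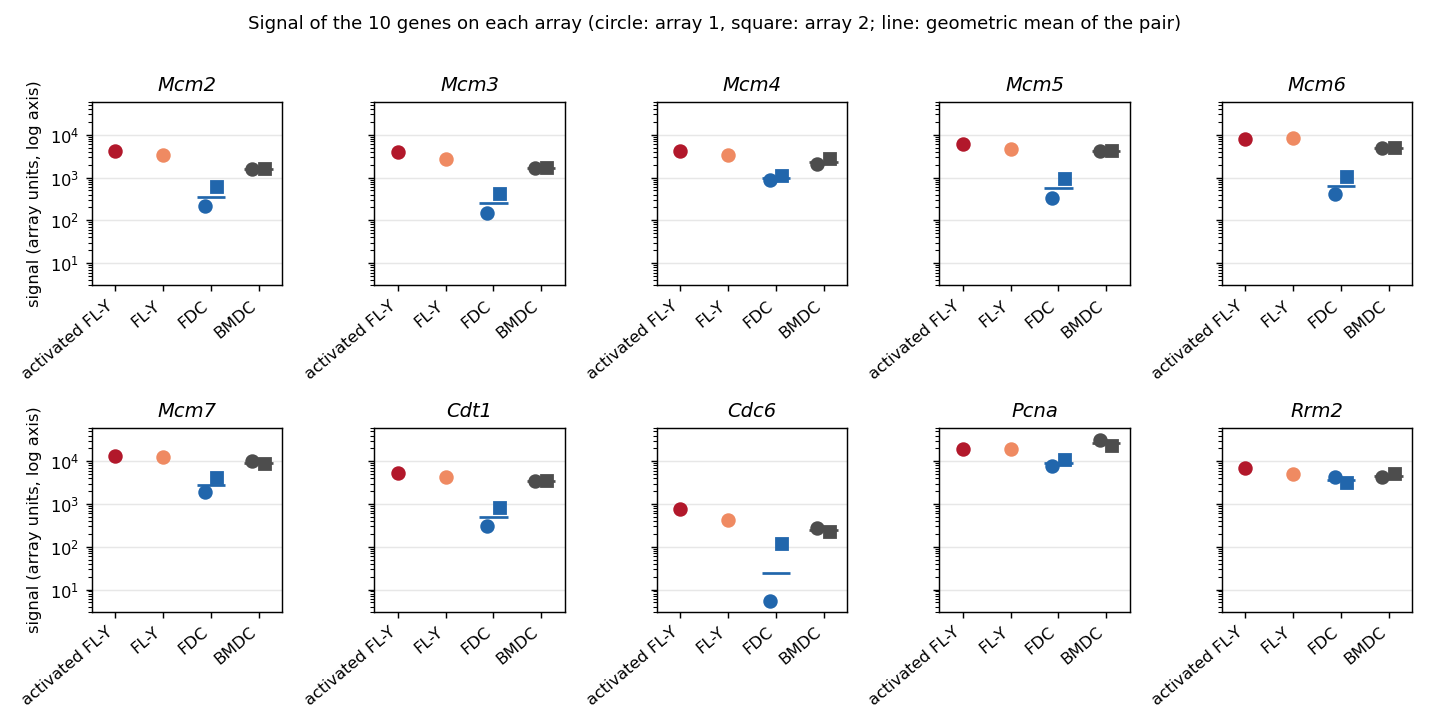
Signal in array units (log axis) of the representative probe set of each of the 10 genes on the activated FL-Y, FL-Y, FDC and BMDC arrays, with circles for array 1, squares for array 2 and a line at the geometric mean of a pair. In 8 of 10 panels the points descend from both FL-Y arrays through BMDC to FDC array 2 and then FDC array 1. The share of all probe sets in that order was not counted. Pcna is highest in BMDC and Rrm2 is nearly level.

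Mcm6 showed the largest difference among the representative probe sets. Its signal was 403 and 1013 in FDC, against 5040 and 4905 in BMDC. The FDC arrays lay far below the BMDC arrays and differed from each other by 2.46-fold. The mean was 708 ± 431 in FDC and 4973 ± 95.7 in BMDC (SD, n = 2 each), a difference of -2.93 ± 0.54 (SE; limma adjusted p = 0.0337). A second Mcm6 probe set, with 47.2 and 63.0 in FDC against 466 and 342 in BMDC, was lower by -2.59 ± 0.40 (SE; limma adjusted p = 0.0204), while the last was too dim to be tested.

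Mcm5, also a subunit of the ring, had signals of 335 and 943 in FDC and 4186 and 4190 in BMDC. The BMDC arrays were almost equal and the groups did not overlap. It was lower in FDC by -2.86 ± 0.57 (SE; limma adjusted p = 0.0427), and a second probe set by -3.04 ± 0.63 (SE; limma adjusted p = 0.0476). The dimmest one differed by -1.66 (limma adjusted p = 0.112).

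Mcm3 had signals of 152 and 407 in FDC and 1697 and 1679 in BMDC. Again the groups did not overlap, and the difference was -2.69 ± 0.55 (SE; limma adjusted p = 0.0451). Of its 5 probe sets, 3 were called lower and another differed by -2.28 (limma adjusted p = 0.0653). The remaining one, with 65.7 and 25.9 in FDC against 26.9 and 113 in BMDC, disagreed with them at -0.35 (limma adjusted p = 0.812).

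The other 3 helicase subunits did not pass the threshold. Mcm2 had signals of 213 and 591 in FDC and 1613 and 1602 in BMDC, a difference of -2.13 ± 0.57 (SE; limma adjusted p = 0.0893). Mcm7 had 1895 and 4026 in FDC and 9889 and 8634 in BMDC, a difference of -1.74 ± 0.50 (SE; limma adjusted p = 0.106). The values of both genes were separated by group. Mcm4 had 868 and 1085 in FDC and 2101 and 2687 in BMDC, and its difference of -1.28 ± 0.39 (SE; limma adjusted p = 0.124) was the smallest of the ring. By the representative probe sets it was nonetheless the subunit whose FDC arrays lay closest together. A second Mcm4 probe set had 172.5 and 119.1 in FDC and 315.7 and 215 in BMDC. It differed by -0.80 (limma adjusted p = 0.339).

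Cdt1, which brings the helicase to the origin, had signals of 304 and 823 in FDC and 3481 and 3430 in BMDC. Both FDC values were below both BMDC values by several-fold, and the difference was -2.75 ± 0.56 (SE; limma adjusted p = 0.0449). A second Cdt1 probe set differed by -2.51 (limma adjusted p = 0.0519), and the last lay under the 20th percentile on all 6 arrays. Cdc6, the ATPase that works beside Cdt1, had 5.40 and 116 in FDC and 269 and 227 in BMDC. One FDC value was at background level and the other about midway, so the difference of -2.37 ± 0.91 (SE) had the largest standard error of the 10 (limma adjusted p = 0.200). It was -1.01 without FDC array 1 and -3.74 without FDC array 2.

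Pcna, read by 1 probe set, had signals of 7641 and 10513 in FDC and 31377 and 23367 in BMDC. The groups were apart, with a difference of -1.59 ± 0.41 (SE; limma adjusted p = 0.0831). Rrm2, the small subunit of ribonucleotide reductase, had 4235 and 3108 in FDC and 4332 and 4939 in BMDC. Here the highest FDC value came close to the lowest BMDC value. The difference was -0.35 (95% confidence interval -1.34 to 0.64; limma adjusted p = 0.660), so a fall of about the size seen in Mcm4 lies within its interval. Its other probe sets gave -0.17 and -0.49, and in both the FDC and BMDC values overlapped.

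**Figure D2:**
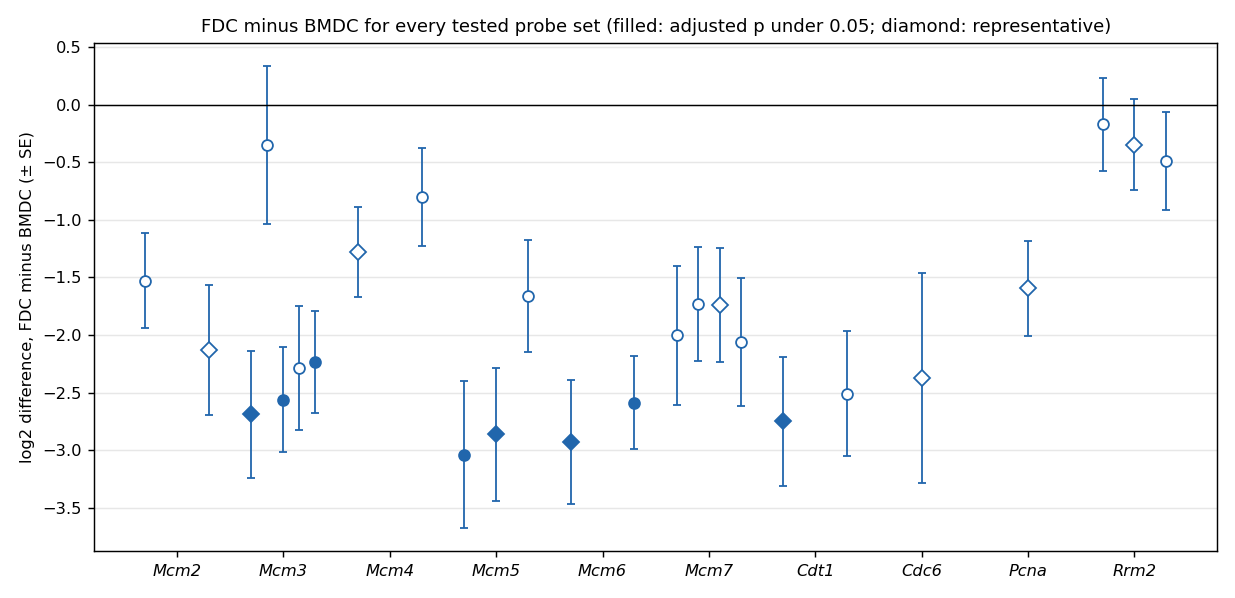
Log2 difference of FDC minus BMDC with its standard error for the 25 tested probe sets of the 10 genes, diamonds marking the representative probe set of a gene and filled symbols an adjusted p under 0.05. All points lie below 0, the 8 filled ones belong to Mcm3, Mcm5, Mcm6 and Cdt1, and the 3 Rrm2 points lie nearest to 0 together with 1 of Mcm3.

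Of the 27 probe sets, 25 were bright enough to be tested; 8 were called lower and 0 higher. The names of the representative probe sets of Mcm5 and Rrm2 end in _x_at, which marks probes that can match other transcripts. The same ending is found, among others, in the second probe sets of Mcm6 and Mcm4 and in a called one of Mcm3. The calls rested on few arrays. None of the 4 genes passed when BMDC array 1, BMDC array 2 or FDC array 1 was left out (limma adjusted p of 0.0682 to 0.135 for the 4), while 6 genes passed without FDC array 2. None passed without the filter on dim probe sets or without the offset. There 638 of 45037 and 661 of 27022 probe sets were called lower, against 1106 of 27022 in the main setting. With the array number as a block 1 gene passed (Mcm6), and 1 (Mcm3) with the mean of all probe sets of a gene.

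The 2 FDC arrays had unequal signals in these genes. FDC array 2 was above FDC array 1 for 9 of 10 genes, all except Rrm2, against 48.1% of all probe sets tested. The excess passed 1 on the log2 scale for 7 of 10 genes, against 11.2% of all. It was 2.74-fold for Mcm5, 2.66-fold for Mcm2, 2.63-fold for Cdt1, 2.54-fold for Mcm3, 2.46-fold for Mcm6 and 2.12-fold for Mcm7. Cdc6 stood at 6.62-fold from a value at background level, and Pcna and Mcm4 at 1.38-fold and 1.25-fold. These counts and values are of the representative probe sets. Of all 27 probe sets of the 10 genes, 22 were higher on FDC array 2. The second one of Mcm4 was lower there, by -0.49, as was the dimmest one of Mcm3, by -0.99. The median over the 10 genes was 1.32, against -0.037 for all probe sets. The BMDC arrays were close to each other in the same genes, with differences of -0.43 to 0.35. This is 1 array against 1, with no test.

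The difference between the cell types was accordingly larger with the first arrays. FDC array 1 minus BMDC array 1 had a median of -3.10 over the 10 genes, and FDC array 2 minus BMDC array 2 a median of -1.36. Mcm6 differed by -2.26 in the second pair and by -3.60 in the first, and Mcm5 by -2.14 and -3.59. Mcm4 was alike in both pairs, at -1.30 in the second and -1.26 in the first. By the representative probe sets, all 10 genes were lower in FDC within each pair, Rrm2 by -0.67 in the second and by -0.03 in the first. Among the other tested probe sets, one of Rrm2 (0.03) and the dimmest of Mcm3 (0.96) were higher in FDC in the first pair. In the second pair these differed by -0.38 and -1.66. Without FDC array 1 the median of the 10 genes was -1.39. The ratio of labelling to hybridisation control probe sets was 0.0888 on FDC array 1 and 0.243 on FDC array 2, against 0.0824 and 0.379 on the BMDC arrays, so the first and second arrays also stood apart there. On FDC array 2 relative to array 1 the median difference was -1.06 for FDC, -0.86 for T cell, -0.64 for B cell, -0.53 for mesenchymal and -0.062 for mast cell markers. For hematopoietic markers it was 0.50, with 4 of 7 higher on array 2 and nearly equal sums. The part of these differences in the results was not tested.

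**Figure D3:**
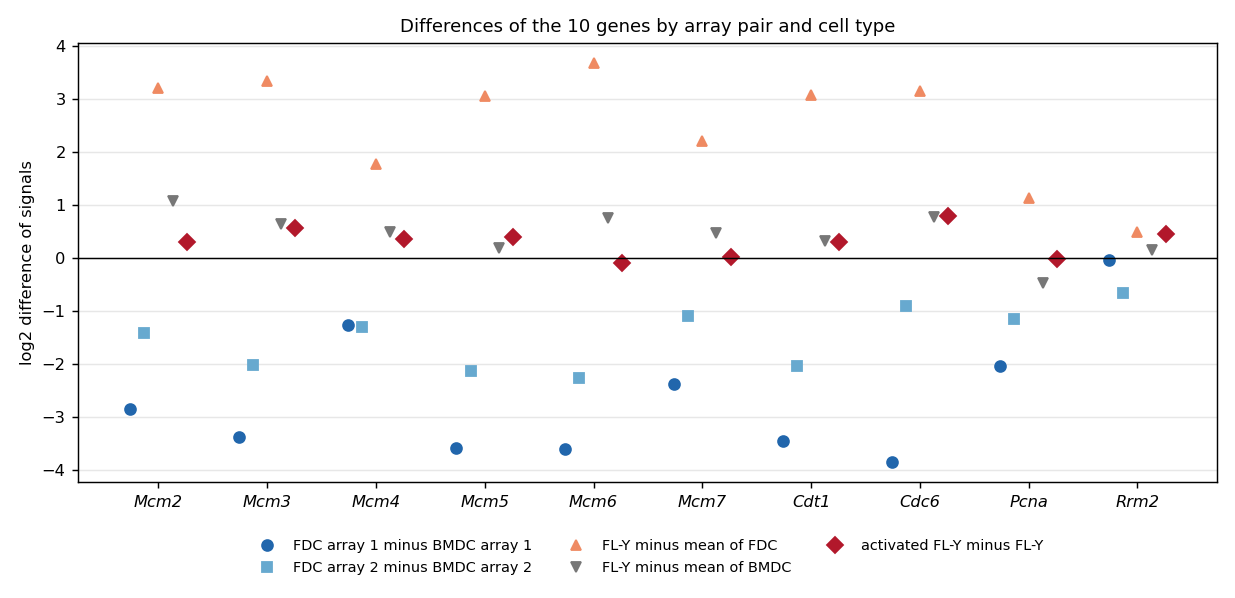
Log2 differences of the 10 genes: each FDC array minus the BMDC array of the same number, FL-Y minus the mean of FDC, FL-Y minus the mean of BMDC, and activated FL-Y minus FL-Y. The FL-Y minus FDC points lie at 0.50 to 3.68, the FDC minus BMDC points lie below 0 in both pairs, and those of activation stay within 1 of 0.

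The FL-Y line had higher signals in these genes than the cultured FDC. By the representative probe sets, its signal was above both FDC arrays for 10 of 10 genes, against 33.6% of all probe sets. The same held for 25 of all 27 probe sets of these genes. Another one of Rrm2 had 3604 in FL-Y against 3306 and 3650 in FDC. Mcm6 had 8377 in FL-Y against 403 and 1013 in FDC, 12.8-fold higher. Mcm3 had 2656 in FL-Y against 152 and 407 in FDC, 10.1-fold higher, and Mcm2 had 3384 against 213 and 591, 9.15-fold higher. In each the FL-Y value stood several-fold above the higher FDC array. Mcm5, with 4752 in FL-Y, was 8.24-fold higher, Mcm7, with 12781, 4.61-fold and Mcm4, with 3326, 3.39-fold.

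Cdt1 had 4320 in FL-Y and was 8.40-fold higher than in FDC. Cdc6 had 430 in FL-Y against 5.40 and 116 in FDC, 8.81-fold higher, a size that rests on an FDC value at background level. Pcna, with 19552 in FL-Y, was 2.18-fold higher and Rrm2, with 5133, 1.41-fold higher. The median over the 10 genes was 3.06, against -0.085 for all probe sets tested. With 1 FL-Y array, the test assumed that it varies like the FDC and BMDC pairs. By that test (limma on all 6 arrays) 0 of 10 genes passed an adjusted p of 0.05, with adjusted p from 0.151 to 0.665 and standard errors from 0.48 to 1.12. At an unadjusted p under 0.05, 8 of 10 passed, all except Pcna and Rrm2, against 6% of all probe sets. Over all probe sets 0% were called higher in FL-Y than in FDC and 1 was called lower, so adjusted calls were scarce throughout this comparison.

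FL-Y was next compared with BMDC. FL-Y was above both BMDC arrays and both FDC arrays for 9 of 10 genes, against 22.5% of all probe sets. The exception was Pcna, at 19552 in FL-Y against 31377 and 23367 in BMDC. Mcm2 was 2.10-fold higher, Cdc6 1.70-fold, Mcm6 1.68-fold and Mcm3 1.57-fold, and the other helicase subunits, Cdt1 and Rrm2 lay between 1.11-fold and 1.40-fold. The median difference was 0.48, against -0.048 for all probe sets. By their representative probe sets, none of the 10 passed an adjusted p of 0.05 (limma, adjusted p from 0.424 to 0.911) and 0 passed an unadjusted 0.05, where 2.8% and 10.4% of all probe sets were called higher, and 7.22% were called in either direction at the adjusted threshold. Of the 25 tested probe sets, 2 passed an unadjusted 0.05, both higher in FL-Y: a second one of Mcm2 by 1.85 ± 0.51 (SE; limma adjusted p = 0.103) and a second one of Mcm6 by 1.33 ± 0.49 (SE; limma adjusted p = 0.186). Another one of Mcm3 was lower in FL-Y than in BMDC, by -0.16, and another one of Rrm2 by -0.12. Of all 27 probe sets, 21 were higher in FL-Y than on every FDC and BMDC array. For 8 of 10 genes, read by their representative probe sets, the order over the arrays was the same: both FL-Y arrays, both BMDC arrays, FDC array 2 and FDC array 1. How many of all probe sets share this order was not counted. Some other probe sets of these genes departed from it. A second one of Mcm4 had 172.5 in FDC array 1 and 119.1 in FDC array 2. The dimmest one of Mcm5 had 195.9 in FL-Y against 243.2 in BMDC array 1. Between neighbours in that order, by the representative probe sets, FL-Y minus BMDC passed an adjusted p of 0.05 in 0 of the 8 genes and FDC minus BMDC in 4 (limma). Both FL-Y comparisons share the FL-Y array, and the FDC arrays enter 2 of the comparisons.

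Between activated FL-Y and FL-Y the differences were small, with 1 array on each side and no test. The activated array was above the FL-Y array for 8 of 10 genes, against 47.2% of all probe sets, and 0 of 10 passed 1 on the log2 scale, against 3.12% of all. Cdc6 had 751 in activated FL-Y and 430 in FL-Y, 1.72-fold higher. Mcm3 had 3954 and 2656, 1.49-fold higher, and Rrm2 6994 and 5133, 1.36-fold higher. These were the widest gaps. Mcm5 had 6230 in activated FL-Y and 4752 in FL-Y, Mcm4 4277 and 3326, Cdt1 5318 and 4320, and Mcm2 4165 and 3384, or 1.23-fold to 1.31-fold. Mcm7 (12954 and 12781), Pcna (19291 and 19552) and Mcm6 (7808 and 8377) were nearly level. The median was 0.33, against -0.031 for all probe sets. The count of genes above FL-Y depended on scaling: 9 of 10 after quantile normalization and 10 of 10 after rescaling to one median, which moved the median of all probe sets to 0.30.

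Other genes of replication were taken from 6 lists with 65 measured genes, read by 1 probe set each. In FDC against BMDC 9 of 65 were lower and 0 higher at an adjusted p under 0.05 (limma), against 4.09% of all probe sets called lower, with a median of -1.09. FL-Y was above both FDC arrays for 58 of 65, against 33.6% of all probe sets, with a median difference of 1.76 and no gene called. FDC array 2 was above FDC array 1 for 50 of 65, against 48.1% of all probe sets, by a median of 0.33. Without BMDC array 1, BMDC array 2 or FDC array 1 only Gins1 was called of the 65, and 11 were called without FDC array 2. Without the filter 2 were called (Gins1 and Gmnn), against 638 of 45037 probe sets called lower. Without the offset 4 were called, against 661 of 27022. With the mean of all probe sets of a gene 9 were called, of which 6 were among the 9 called before.

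Of 12 genes of origin firing, which turn the loaded ring into a working helicase, 2 were lower in FDC. Gins1, a subunit of the GINS complex, had signals of 74.4 and 82.2 in FDC against 752 and 815 in BMDC. Its FDC arrays were close to each other, and it was lower by -3.11 ± 0.37 (SE; limma adjusted p = 0.00981). Wdhd1, which couples helicase and primase, was lower by -2.70 (limma adjusted p = 0.0233). Mcm10, another helicase cofactor, had the widest gap to FL-Y, with 975 in FL-Y against 33.0 and 130 in FDC.

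Of 11 genes that control licensing, 2 were lower in FDC. Geminin (Gmnn), the inhibitor of Cdt1, had 312 and 543 in FDC against 2885 and 3859 in BMDC, 7.86-fold lower (limma adjusted p = 0.0193). Inhibitor and target thus ran the same way, since Cdt1 was lower too. Fbxo5, an inhibitor of the anaphase-promoting complex, was lower by -2.14 (limma adjusted p = 0.0302). Dtl, which marks Cdt1 for destruction in S phase, had 1081 in FL-Y against 52.5 and 180 in FDC.

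Of the 6 subunits of the origin recognition complex, which marks the origins, 0 were called in limma, 0 passed an unadjusted p of 0.05, and the median was -0.29. FL-Y was above both FDC arrays for 4 of 6, with a median difference of 1.03. Orc1 differed by -0.83 (limma adjusted p = 0.418) and Orc4 by 0.76 (limma adjusted p = 0.389). Their signals were 68.0 and 175 in FDC against 187 and 231 in BMDC for Orc1, and 1334 and 1676 against 666 and 1157 for Orc4. Orc1 was also the subunit with the widest gap between FL-Y, at 478, and FDC.

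Of 12 polymerase and primase genes, Pold1, the catalytic subunit of polymerase delta, was lower in FDC by -2.56 ± 0.46 (SE; limma adjusted p = 0.0324). Pole, that of polymerase epsilon, had 1614 in FL-Y against 22.2 and 296 in FDC. Of 15 clamp loading and fork genes, 3 were lower: the checkpoint mediator Clspn by -2.43, the chromatin assembly subunit Chaf1b by -2.21 and DNA ligase 1 (Lig1) by -1.84, with limma adjusted p of 0.0210, 0.0493 and 0.0451. With the mean of all its probe sets, Chaf1b differed by only -0.77 (limma adjusted p = 0.277). Clspn also had the widest gap to FL-Y in that list, at 1018 in FL-Y against 81.1 and 104 in FDC. Of 9 nucleotide supply genes, deoxycytidine kinase (Dck) was lower by -1.83 ± 0.38 (SE; limma adjusted p = 0.0482). Thymidine kinase 1 (Tk1) had 5075 in FL-Y against 199 and 731 in FDC. Of 9 housekeeping genes none was called, and their median was -0.33 in FDC against BMDC and 0.15 in FL-Y against FDC. The list was not level: Tfrc, the transferrin receptor, differed by -3.00 (limma adjusted p = 0.0644) and Gusb, a lysosomal enzyme, by -2.28 (limma adjusted p = 0.0553) in FDC against BMDC, both named after their values were seen.

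**Figure D4:**
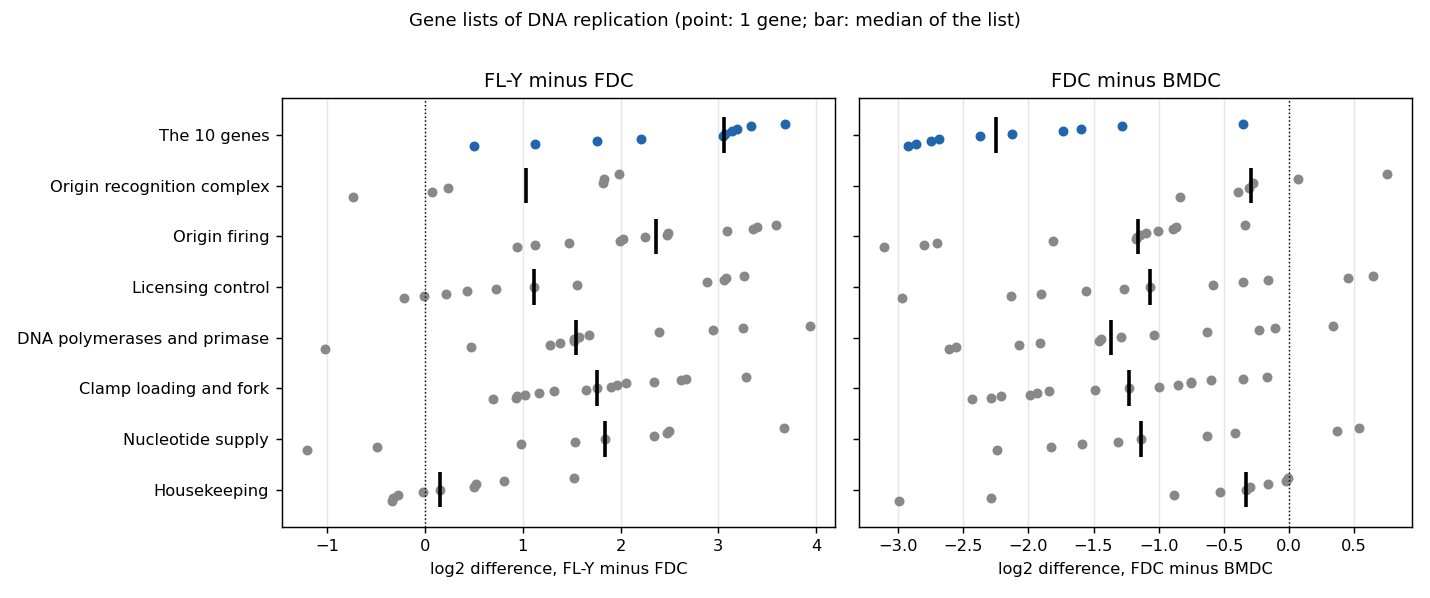
Log2 difference of FL-Y minus FDC (left) and FDC minus BMDC (right) for the 10 genes and for 6 lists of replication genes and the housekeeping genes, with 1 point per gene and a bar at each median. The medians of the 10 genes, 3.06 and -2.25, lie farther from 0 than those of the lists, and the origin recognition complex lies nearest to 0 among the replication lists.

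The 10 genes were not equally alike over the 6 arrays. Pearson's r of each gene with the mean standardized log2 profile of the other 9 was 0.998 for Mcm3, 0.993 for Cdt1, 0.991 for Mcm6, 0.990 for Mcm5, 0.987 for Mcm7, 0.982 for Mcm2, 0.973 for Mcm4 and 0.945 for Cdc6. Pcna, at 0.827, and Rrm2, at 0.675, followed the others least. The 6 arrays belong to 4 cell groups, so r describes these arrays only.

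Among 10331 other genes that varied by at least 1 on the log2 scale, the 10 most like the mean profile were Rfc5 (a clamp loader subunit), Tmpo (a lamina-associated protein), Fam111a, Cep83, Chaf1b, Prim2 (the large primase subunit), Aurkb (a mitotic kinase), Mbnl3 (an RNA-binding protein), Nasp (a histone chaperone) and Hmgb3 (a chromatin protein). Their r lay between 0.994 and 0.998 over 6 arrays. Rfc5 had signals of 2751 in activated FL-Y, 2307 in FL-Y, 239 and 512 in FDC, and 1786 and 1746 in BMDC, the same order as Mcm6 in FL-Y, BMDC and FDC. Of these, 3 were on the replication lists. An r above 0.9 was reached by 438 of 10331 genes and by 28 of the 60 listed replication genes among them.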

How the data were processed

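Total RNA was labelled with biotin and hybridised to 1-colour arrays, per the labels. The deposited table holds 1 linear intensity value per probe set and array (45101 probe sets, 64 of them controls), which the authors had scaled before deposit; no source used here gives the program, its version or any background step. Precision is limited by the small number of arrays. The scale used was log2(signal + 14.2), with the median of the arrays' 20th percentiles as offset. Probe sets entered the test where their mean lay above the 40th percentile (a signal of 46.4), 27022 in all. FDC were compared with BMDC on 4 arrays with limma 3.58.1 in R 4.3.3 (2 residual and 3.35 prior degrees of freedom), and FL-Y with FDC and BMDC in a fit of all 6 arrays in 4 groups. Benjamini-Hochberg adjustment ran over all probe sets tested, at 0.05, two-sided. Each gene was read by the probe set of highest mean log2 over 6 arrays. The platform annotation gave 34945 probe sets 1 gene, 932 several and 9160 no entry. From each replication list up to 3 called genes are named, otherwise the 2 of largest difference, and the 1 of largest FL-Y minus FDC difference; the genes most like the members are the top 10 by Pearson's r. Some genes of the lists are not reported here. Members and lists were chosen with earlier results of these data known. Other offsets, scalings, filters, probe set rules, a block and leaving out each array were tried.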

Additional observations from a re-analysis of the deposited data

How the results depend on the processing

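With 2 arrays per cell type, calls depended on single arrays and on settings. Of the 10 genes, 4 were called lower in FDC, and 4 also after quantile normalization, after rescaling to one median and with all 6 arrays in the fit. Calls over all probe sets also moved with the settings. Of 27022 probe sets 1106 were called lower in the main setting, 1463 with an offset at the 40th percentile and 661 with no offset. Without the filter it was 638 of 45037. Among the 10 genes the count was 6 with an offset at the 40th percentile (Mcm2 and Pcna added) and 1 with the mean of all probe sets of a gene. It was 0 without the filter and 0 with no offset and values floored at a signal of 3.3 (5th percentile). With an array left out it ranged from 0 to 6. The array number as a replicate block gave 1 call (Mcm6); the differences of array 2 minus array 1 correlated at r = 0.199 between FDC and BMDC over 27022 probe sets, and no pairing of the arrays is given. The median of FDC minus BMDC was -3.10 in array pair 1 and -1.36 in array pair 2, settings chosen after seeing the data, and ranged from -3.10 to -1.39 with an array left out. FL-Y minus FDC and FL-Y minus BMDC gave 0 calls in every setting run, and the FL-Y minus FDC median ranged from 2.05 to 3.77 with an FDC array left out. The median of FL-Y minus BMDC, 0.48, was 0.52 with the mean of all probe sets and 0.87 after rescaling to one median, a scaling that moved the median of all probe sets to 0.32. The median of activated FL-Y minus FL-Y, 0.33, was 0.18 with the mean of all probe sets, 0.331 without offset, 0.327 with the 40th percentile offset, 0.331 after quantile normalization and 0.68 after rescaling to one median. Of 120 results of single genes under these alternatives 90 kept direction and side of the threshold, 26 no longer passed, 4 newly passed and 0 changed sign. Without the filter more probe sets were adjusted for; the cause of the other changes was not tested.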
